A study of Mus musculus with 12 samples.

Results

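The genes described here encode the Polycomb and Trithorax complexes, the chromatin regulators best known for holding Hox genes silent or active. They were taken by symbol from a list of the PRC1, PRC2, MLL/COMPASS, menin and Dot1l machinery together with the demethylases and deubiquitinase subunits that oppose them. All 42 listed genes were among the 55376 genes of the count file, and all 42 were among the 11994 genes with enough counts to test. The list asks whether regulators of Hox chromatin differ with the NUP98-NSD1 fusion or with shRNAs against Nizp1.

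RNA was read in 12 libraries of mouse bone marrow cells sorted as c-Kit+/Sca-1+/Lin- progenitors and grown in RPMI with 20 ng/ml of IL-3, 20 ng/ml of IL-6 and 100 ng/ml of SCF. There were 4 groups of 3 libraries: the empty retroviral vector MSCV with the control shRNA (empty vector), NUP98-NSD1 with the control shRNA (fusion control), and NUP98-NSD1 with shNizp1#1 or with shNizp1#2. NUP98-NSD1 joins a nucleoporin to a histone H3 lysine 36 methyltransferase and occurs in acute myeloid leukaemia, and Nizp1 is a zinc finger protein that binds NSD1 and is listed as Zkscan17. The fusion and the empty vector came from packaging-cell supernatant followed by geneticin selection, so every group is a cultured, transduced population, and the shRNAs were added from pLKO.1-puro vectors. The series describes 3 independent experiments without naming animals, so p-values measure only the spread between these libraries, and libraries that share a replicate number are called an experiment below, which is an inference from their correlation. Controls and knockdowns alike carry a shRNA vector.

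Polycomb repressive complex 2 (PRC2) methylates histone H3 at lysine 27 through Ezh1 or Ezh2, and PRC1 complexes bind that mark through Cbx proteins or ubiquitinate histone H2A through Ring1 and Rnf2. The MLL methyltransferases (Kmt2a to Kmt2d), with the shared subunits Wdr5, Rbbp5, Ash2l and Dpy30, methylate histone H3 at lysine 4 and oppose Polycomb silencing. In blood progenitors Bmi1 is known for sustaining self-renewal, Kmt2a and menin (Men1) for maintaining HoxA expression, and the H3 lysine 79 methyltransferase Dot1l for its requirement in MLL-rearranged leukaemia.

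Promoter sequences from RefSeq (build GRCm38.p6, 250 bases before to 50 after the start) were found for 35 of the 42 genes, with 46 promoters in all. These promoters held a median of 24 CpG dinucleotides, against 7 over all 32851 promoters of the table, and a median of 65.2% G and C, against 52.7%. The 5 printed here belong to the genes on which the results turn: the paralogs Ezh1 and Ezh2, whose ratio differed between libraries, and Kmt2a, Kmt2c and Kmt2d, which moved together between experiments. All 5 lie on the minus strand and are written 5′ to 3′ in the direction of the gene, and capitals mark matches to the motifs searched. They span chr6:47594981-47595280 (Ezh2), chr11:101226414-101226713 (Ezh1), chr9:44881240-44881539 (Kmt2a), chr5:25498734-25499033 (Kmt2c) and chr15:98871156-98871455 (Kmt2d).
Ezh2: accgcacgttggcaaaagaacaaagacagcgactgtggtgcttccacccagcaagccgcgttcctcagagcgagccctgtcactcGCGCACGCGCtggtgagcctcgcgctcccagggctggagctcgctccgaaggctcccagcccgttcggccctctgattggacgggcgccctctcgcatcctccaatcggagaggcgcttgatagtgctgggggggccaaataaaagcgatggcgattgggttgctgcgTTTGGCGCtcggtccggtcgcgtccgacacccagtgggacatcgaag
Ezh1: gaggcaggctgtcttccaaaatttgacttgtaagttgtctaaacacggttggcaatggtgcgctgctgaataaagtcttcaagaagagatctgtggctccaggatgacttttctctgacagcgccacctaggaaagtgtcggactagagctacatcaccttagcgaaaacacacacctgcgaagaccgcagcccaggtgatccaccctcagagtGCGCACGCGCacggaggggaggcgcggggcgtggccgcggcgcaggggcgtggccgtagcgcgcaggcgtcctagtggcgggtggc
Kmt2a: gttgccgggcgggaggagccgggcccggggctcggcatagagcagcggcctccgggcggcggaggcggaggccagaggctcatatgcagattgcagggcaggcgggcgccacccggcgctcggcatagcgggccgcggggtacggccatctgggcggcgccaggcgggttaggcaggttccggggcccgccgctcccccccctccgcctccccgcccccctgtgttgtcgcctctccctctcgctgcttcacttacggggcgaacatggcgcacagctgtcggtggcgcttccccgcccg
Kmt2c: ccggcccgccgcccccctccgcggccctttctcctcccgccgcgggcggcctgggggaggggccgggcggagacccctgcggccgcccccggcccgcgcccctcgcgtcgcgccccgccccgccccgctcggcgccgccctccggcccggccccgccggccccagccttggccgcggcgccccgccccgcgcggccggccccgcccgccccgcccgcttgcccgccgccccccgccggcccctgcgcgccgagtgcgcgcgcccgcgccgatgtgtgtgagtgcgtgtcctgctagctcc
Kmt2d: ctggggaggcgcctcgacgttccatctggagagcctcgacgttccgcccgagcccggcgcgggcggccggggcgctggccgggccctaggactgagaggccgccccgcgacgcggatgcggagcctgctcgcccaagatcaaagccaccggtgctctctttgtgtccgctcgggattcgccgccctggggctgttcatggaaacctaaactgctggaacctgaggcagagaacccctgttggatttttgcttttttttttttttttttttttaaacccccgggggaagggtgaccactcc

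The letters searched, on both strands, were TTTGGCGC and TTTCCCGC (E2F), CCGGAAGT (ETS), AAGATGGC (YY1) and the NRF1 motif, which is the 10-base run in capitals of Ezh1 and Ezh2 with any base in the sixth position. None of these contains another. Ezh2 held both TTTGGCGC, present in 0.514% of all promoters, and the NRF1 motif. The NRF1 motif stood in the promoters of 9 of the 35 genes (Cbx7, Dpy30, Ezh1, Ezh2, Pcgf3, Pcgf6, Phc3, Rbbp7 and Wdr5), or 25.7%, against 5.19% of all genes with a promoter entry. A gene can have several entries: the motif stood in 11 of the 46 promoters of the 35 genes, and in 4.6% of all promoters. The NRF1 motif itself contains CpG, and the 46 promoters held a median of 24 CpG against 7 over all promoters. The shares were not matched for CpG content, and its part was not tested. TTTCCCGC was found for Phf19 and Suz12, or 5.71% of the 35 genes, against 1.24% of all genes with a promoter entry. AAGATGGC was found for Dot1l, Kdm5c, Phc3 and Phf19 (11.4% against 3.19%) and CCGGAAGT for Asxl2 (2.86% against 4.31%). None of the searched letters occurred in the windows of Kmt2a, Kmt2c and Kmt2d, which held 36, 56 and 27 CpG. Kmt2c had more CpG than 99.8% of all promoters. These matches describe letters in the window, and binding was not measured.

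Each library held between 3586538 and 6842589 counts, and the 42 genes took between 0.279% and 0.34% of them. Levels between libraries are given as CPM (counts scaled to the library's count over tested genes and its TMM factor), and 3 counts correspond to 0.417 to 0.837 CPM. The targeted gene was checked first: Zkscan17 counted 62.6, 49.4 and 61.8 CPM in replicates 1, 2 and 3 of the fusion control, 35, 26.2 and 30.4 with shNizp1#1 and 29, 17.6 and 27 with shNizp1#2. Neither knockdown group overlapped the fusion control. In the test used below, without the replicate number as a block, no gene passed an adjusted p of 0.05 with shNizp1#1. Only 1 gene, Fuca2, passed with shNizp1#2. Zkscan17 was therefore not called in either comparison without the block, although its groups did not overlap. Of the genes that define the sort, Kit stood at 1930 to 3100 CPM, while Ly6a, which encodes Sca-1, ranged from 23.8 to 277. Cd34, a progenitor gene that the labels do not name in the sort, stood at 1140 to 2020. A list of 10 mast cell genes summed to 37400 to 61600 CPM in every group, and 7 B cell genes to 0.438 to 3.25. In bulk RNA, fewer cells of a type and less RNA per cell cannot be told apart.

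Per kilobase of the gene's length in the file (RPKM), the median of the 42 genes was 13.7, against 10 over all tested genes, and 27 of the 42 lay above that median. Of the 6 PRC2 core genes, 5 stood with Wdr5 at the top of the order, and Ezh1, with a mean of 12.9, was number 24, as the plot of RPKM by gene shows. Rbbp4 and Rbbp7, histone-binding subunits that PRC2 shares with other complexes, averaged 74.6 and 58.8 RPKM over the 12 libraries. Next came Wdr5, the scaffold of the MLL complexes, with 49.2, followed by Ezh2 with 35, Suz12 with 33.9 and Eed with 29.7. Rbbp4, Rbbp7, Ezh2, Suz12 and Eed ranged by 1.28-fold to 1.77-fold between their lowest and highest library. For Rbbp4 29.8% of the exon bases overlap genes on the opposite strand, and for Eed 12.6%, so their levels depend on a strand setting not given in the sources used here.

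**Figure D1:**
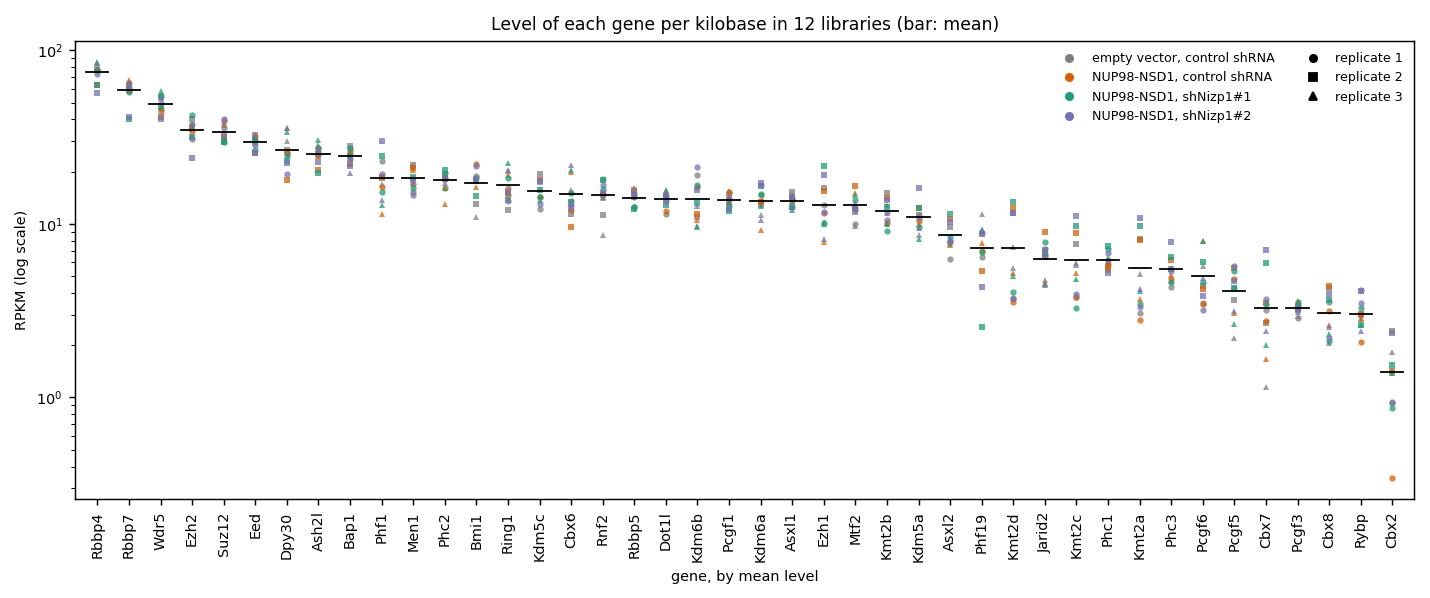
RPKM of each of the 42 genes (y axis, log scale) in 12 libraries, with genes on the x axis in order of their mean (bar), colour for the group and shape for the replicate number. Rbbp4 (mean 74.6) and Cbx2 (mean 1.4) mark the ends, and the squares of replicate 2 stand apart from the other shapes for Kmt2a, Kmt2c and Kmt2d.

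The accessory subunits that distinguish forms of PRC2 were lower: Phf1 averaged 18.4 RPKM, Mtf2 12.8, Phf19 7.31 and Jarid2 6.32. In PRC1, the ubiquitin ligases Ring1 and Rnf2 averaged 16.7 and 14.7 RPKM and could not be put in order, since Rnf2 exceeded Ring1 in only 5 of 12 libraries. Bmi1 (Pcgf4) had the highest mean of the listed Pcgf genes with 17.3 RPKM, then Pcgf1 with 13.7, while Pcgf6, Pcgf5 and Pcgf3 lay between 4.99 and 3.26. Bmi1 exceeded Pcgf1 in 10 of 12 libraries, but not in replicates 2 and 3 of the empty vector (ratios 0.921 and 0.714). Among the chromodomain proteins that read the PRC2 mark, Cbx6 averaged 14.8 RPKM and Cbx7, Cbx8 and Cbx2 only 3.29, 3.07 and 1.4. Phc2 (17.8) exceeded Phc1 (6.16) and Phc3 (5.5), the other Polyhomeotic subunits, and its ratio to Phc1 was above 1 in 12 of 12 libraries. Rybp, a subunit of PRC1 forms without a Cbx protein, averaged 3.04 RPKM.

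The catalytic MLL genes were the low end of their own complexes. Kmt2b averaged 11.8 RPKM, Kmt2d 7.24, Kmt2c 6.17 and Kmt2a 5.54, against 14.1 for Rbbp5, 25.4 for Ash2l and 26.7 for Dpy30. Kmt2a stood below Kmt2d in 12 of 12 libraries. Men1, which tethers Kmt2a to chromatin, averaged 18.3 RPKM and Dot1l 14. The H3 lysine 27 demethylases Kdm6a (13.6) and Kdm6b (13.9) could not be put in order, with Kdm6b above Kdm6a in 6 of 12 libraries. The H3 lysine 4 demethylases Kdm5c and Kdm5a averaged 15.5 and 10.9. Of the PR-DUB complex, which removes ubiquitin from histone H2A, Bap1 averaged 24.6 RPKM, Asxl1 13.5 and Asxl2 8.61, and Asxl1 exceeded Asxl2 in all 12 libraries.

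None of the 42 genes differed between groups past an adjusted p of 0.05 in any of the 4 comparisons (edgeR's quasi-likelihood test, Benjamini-Hochberg adjustment over all 11994 tested genes). This held with and without the replicate number as a block, and DESeq2 and limma-voom also called 0 of 42. Few genes were called at all: without the block 0.00834% of tested genes with the fusion, 0% with shNizp1#1, 0.00834% with shNizp1#2 and 0.00834% between the shRNAs, and with the block 0.275%, 1.63%, 0.217% and 2.37%. At an unadjusted p under 0.05 with the block, 3 of the 42 were higher and 3 lower with the fusion, where 6% and 4.99% of all tested genes were. With shNizp1#1 there were 4 higher and 1 lower (5.66% and 6.67% of all genes), with shNizp1#2 6 higher and 1 lower (5.98% and 5.12%), and between the shRNAs 3 higher and 2 lower with shNizp1#2 (8.63% and 6.2%). Without the block 1, 1, 0 and 1 of the 42 had such a p in the 4 comparisons, against 2.67%, 4%, 2.38% and 5.08% of all genes. In all 3 experiments, 7 genes were higher and 6 lower with the fusion (15.9% and 16.3% of all genes), 8 and 8 with shNizp1#1 (17.2% and 18.1%), 12 and 7 with shNizp1#2 (20% and 19.1%), and 14 and 8 between the shRNAs (22.2% and 20.6%).

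The intervals bound how large a difference could have been missed. With the block, the 95% interval of the change lay wholly within 1.5-fold in either direction for 32 of the 42 genes with the fusion, 37 with shNizp1#1, 34 with shNizp1#2 and 36 between the shRNAs. It lay within 2-fold for 40, 42, 40 and 41. Of all tested genes, 58.8%, 57.3%, 59.1% and 56.6% had intervals within 1.5-fold. Without the block fewer did: 20, 19, 23 and 21 of the 42 were within 1.5-fold (37.4%, 36.9%, 37.8% and 35.1% of all tested genes) and 33, 33, 32 and 34 within 2-fold. All 9 MLL/COMPASS and menin genes were within 1.5-fold in all 4 comparisons with the block. Without it 4, 5, 5 and 5 of the 9 were, 6 were within 2-fold in each comparison, and the interval of Kmt2a with the fusion reached 2.86-fold. The absence of calls without the block therefore does not exclude a 2-fold change of the genes whose intervals were wider. With the fusion and the block, 8 of the 15 PRC1 genes and 7 of the 10 PRC2 genes were within 1.5-fold. As the plot of changes and intervals shows, the wider intervals included that of the sparse gene Cbx2, reaching 2.6-fold. That of Phf19, with 20.1 to 42.8 CPM in these libraries, reached 2.05-fold. The wider intervals also included those of Mtf2, Bmi1 and Rnf2, which were not sparse.

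**Figure D2:**
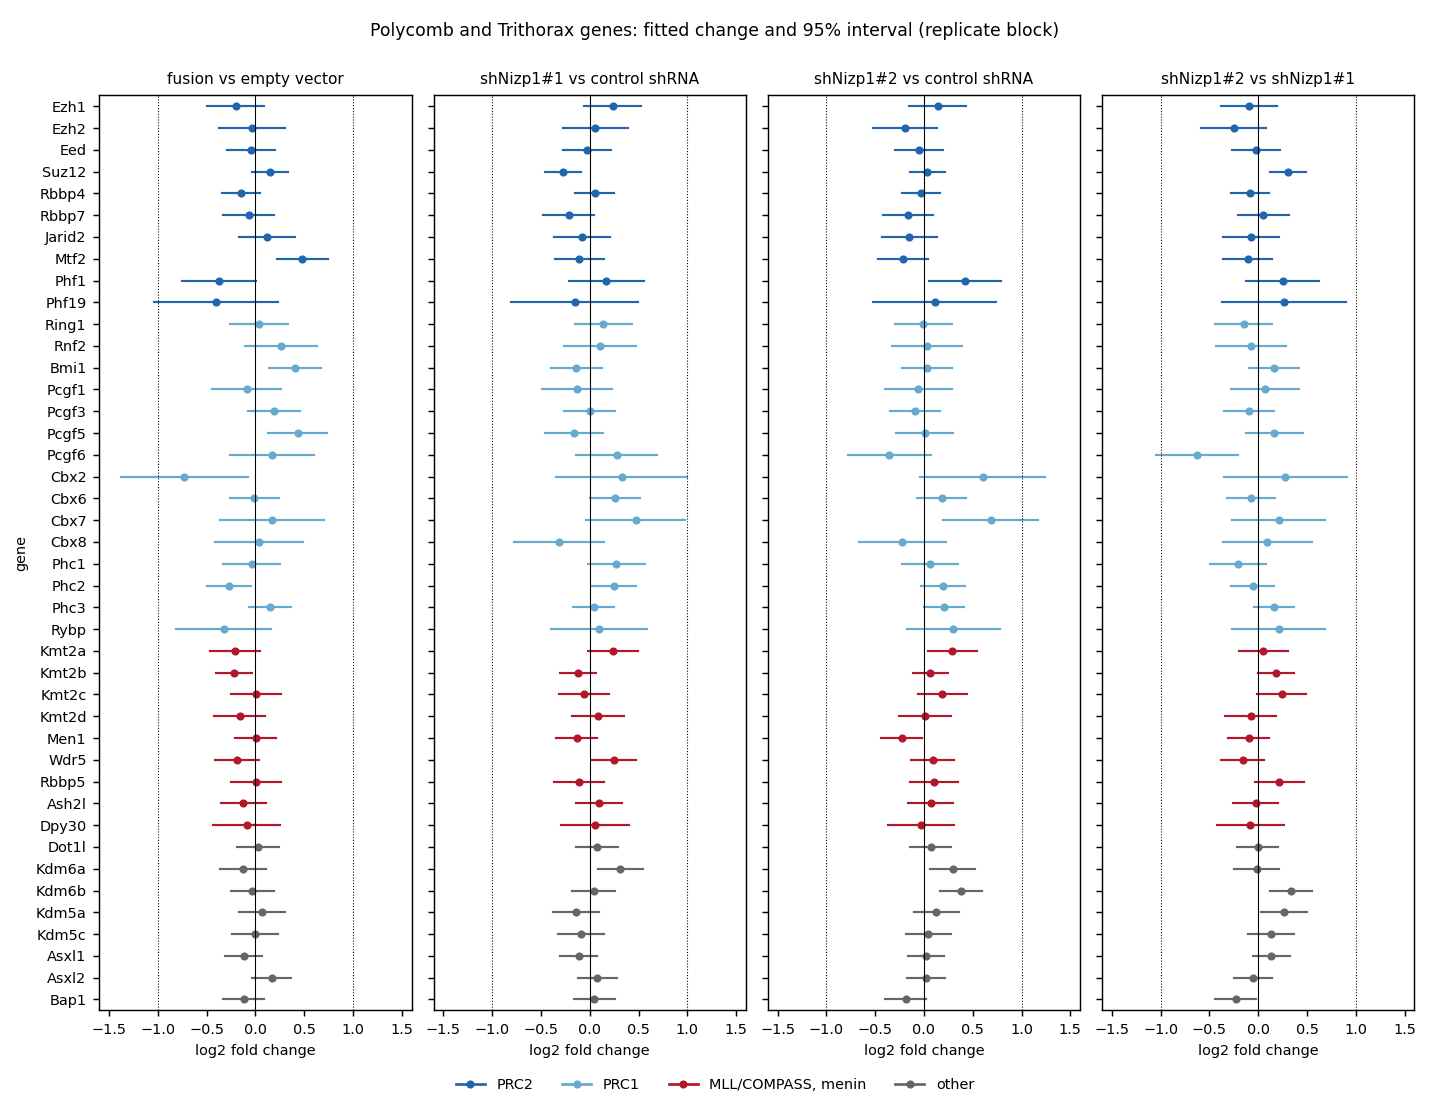
Log2 fold change (point) and 95% interval (line) of each of the 42 genes in 4 comparisons, from the fit with the replicate block, with colour for the complex and dotted lines at a 2-fold change. No gene passed an adjusted p of 0.05, and the intervals of 40, 42, 40 and 41 genes lie between the dotted lines.

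Between the fusion control and the empty vector, the PRC2 accessory gene Mtf2, whose product recruits PRC2 to CpG islands, had the smallest p of the 42. Mtf2 (chr5:108065742-108109004 in mm10, plus strand) counted 40.6, 47.5 and 39.5 CPM with the empty vector and 49.9, 67.5 and 60.8 with the fusion in replicates 1, 2 and 3. The groups did not overlap, which was also so in this direction for 3.68% of all tested genes. Its log2 change was 0.48 (SE 0.12, 95% interval 0.22 to 0.74, adjusted p = 0.179 by edgeR with the block), so it did not pass the threshold. For Mtf2 9.7% of the exon bases overlap Tmed5 on the opposite strand.

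A pair of PRC1 genes of the Pcgf family followed. Bmi1 (chr2:18677018-18686629, plus strand) counted 70.1, 48 and 40.6 CPM with the empty vector and 82.1, 66 and 60.4 with the fusion. Every experiment had the higher value in the fusion library, while the groups overlapped, since replicate 1 was high in both. The log2 change of Bmi1 was 0.40 (SE 0.12, interval 0.14 to 0.67, adjusted p = 0.271 by edgeR with the block). Pcgf5, which builds a PRC1 form without Cbx proteins, counted 28.8, 24.6 and 14.8 CPM and 32.4, 37.8 and 20.8 CPM, with a log2 change of 0.43 (SE 0.14, adjusted p = 0.305 by edgeR with the block). Here too all 3 experiments were higher with the fusion and the groups overlapped. Both changes moved with single libraries in the fit without the block: Bmi1 was at 0.23 without replicate 3 of the empty vector and 0.65 without its replicate 1, and Pcgf5 at 0.18 and 0.62. Without replicate 2 of the fusion control Pcgf5 was at 0.22. Pcgf3 was the other gene whose fusion control libraries (29.3 to 32.4 CPM) all lay above the empty vector (25.9 to 28.6 CPM), and was chosen after its values were seen.

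On the lower side stood Phc2, Kmt2b and Cbx2. Phc2, a Polyhomeotic subunit that lets PRC1 polymerise, counted 79.1, 81.3 and 82.5 CPM with the empty vector and 69.4, 77.5 and 55.5 with the fusion. The groups did not overlap (3.74% of all tested genes in this direction), and replicate 3 of the fusion control was the lowest. Its log2 change was -0.27 (SE 0.11, adjusted p = 0.375 by edgeR with the block). Kmt2b counted 99.9, 128 and 109 CPM and 85.4, 120 and 86 CPM, a log2 change of -0.22 (SE 0.09, adjusted p = 0.371 by edgeR with the block), lower with the fusion in each experiment. Cbx2 was close to the floor, with 3.53, 9.2 and 6.95 CPM against 1.31, 5.41 and 5.3, a log2 change of -0.73 (SE 0.30, interval -1.38 to -0.08, adjusted p = 0.415 by edgeR with the block). Without replicate 1 of the fusion control the change of Cbx2 was -0.29 in the fit without the block.

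The catalytic subunits and leukaemia cofactors differed less. Ezh2 counted 86.7, 113 and 106 CPM with the empty vector and 96.6, 102 and 99.1 with the fusion, a log2 change of -0.04 with the block (interval -0.37 to 0.30). Ezh1 counted 78.5, 97.8 and 62.3 CPM and 70.5, 93.6 and 47.7 CPM, lower in each of 3 experiments, with a log2 change of -0.20 (interval -0.50 to 0.09). The groups of both genes overlapped. Rnf2 varied most within the empty vector, with 60.4, 37.8 and 28.7 CPM, against 49.7, 49.2 and 50.2 with the fusion, and its log2 change was 0.26 with the block (interval -0.11 to 0.63). Without replicate 3 of the empty vector the change of Rnf2 was 0.015 and without its replicate 1 it was 0.58, both in the fit without the block.

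Men1 counted 46.9, 66.4 and 65.6 CPM with the empty vector and 51.5, 63.9 and 62.8 with the fusion, and its interval ran from -0.21 to 0.21 around 0.00 on the log2 scale. Dot1l counted 78, 93.8 and 105 CPM against 80.6, 99 and 101, with a log2 change of 0.03 (interval -0.19 to 0.24). For both genes the values of the groups interleaved. With the block the intervals exclude a change as large as 1.2-fold, while without it they reached 1.28-fold for Men1 and 1.26-fold for Dot1l. Asxl1, often mutated in myeloid neoplasms, counted 95.8, 106 and 104 CPM against 96.1, 97.9 and 87.7, with a log2 change of -0.12 (interval -0.31 to 0.07). Bap1, its catalytic partner, counted 92.3, 97.5 and 87.7 CPM against 88.9, 76.6 and 89.5, also with a log2 change of -0.12 (interval -0.33 to 0.09). Kdm6a counted 87.5, 76.1 and 67.1 CPM against 80.2, 79 and 54.4 (log2 change -0.13), and Kdm6b 127, 72.9 and 64.3 CPM against 108, 75.9 and 69.7 (log2 change -0.03).

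The fusion control libraries serve as the control of both shRNA comparisons and as the treated group above, so values of the 3 comparisons are not independent. With shNizp1#1, the PRC2 core gene Suz12 had the smallest p. Suz12 (chr11:79993106-80034123, plus strand) counted 172, 139 and 163 CPM in the fusion control and 130, 129 and 133 with shNizp1#1, and the groups did not overlap (4.42% of all tested genes in this direction). Its log2 change was -0.27 (SE 0.09, interval -0.46 to -0.09, adjusted p = 0.174 by edgeR with the block). With shNizp1#2 the same gene counted 177, 143 and 166 CPM, each just above the fusion control library of its own experiment.

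The other genes named for shNizp1#1 were higher. Kdm6a, an H3 lysine 27 demethylase that also sits in the Kmt2c and Kmt2d complexes, counted 88.7, 98.2 and 75.3 CPM with shNizp1#1, above the fusion control of its own experiment each time. The log2 change of Kdm6a was 0.31 (SE 0.11, adjusted p = 0.222 by edgeR with the block). Wdr5 counted 158, 136 and 168 CPM against 133, 119 and 135, and the groups did not overlap (3.96% of all tested genes), with a log2 change of 0.25 (SE 0.10, adjusted p = 0.335 by edgeR with the block). Phc1 likewise did not overlap, with 30.7, 32.1 and 27.4 CPM against 25.4, 23.5 and 25.3 and a log2 change of 0.27 (SE 0.14, adjusted p = 0.442 by edgeR with the block).

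Phc2 counted 84.2, 87.9 and 69.2 CPM with shNizp1#1, a log2 change of 0.25 (SE 0.11, adjusted p = 0.332 by edgeR with the block). Set beside the empty vector (79.1 to 82.5 CPM) and the fusion control (55.5 to 77.5 CPM), the fusion control group holds the lowest library, and it is shared by both differences. Cbx6 counted 87.3, 78.1 and 118 CPM against 70.3, 56.1 and 116, with a log2 change of 0.26 (SE 0.12, adjusted p = 0.393 by edgeR with the block). Without the block, the change of Cbx6 was 0.02 without replicate 2 of the fusion control, and 9.7% of its exon bases are shared with Npcd on the same strand.

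With shNizp1#2, both H3 lysine 27 demethylases were among the 6 genes named. Kdm6b (chr11:69398508-69413675, minus strand) counted 108, 75.9 and 69.7 CPM in the fusion control and 141, 105 and 84.4 with shNizp1#2, higher in each experiment, while the groups overlapped because replicate 1 was high throughout. For Kdm6b the log2 change was 0.38 (SE 0.10, interval 0.16 to 0.59, adjusted p = 0.163 by edgeR with the block). Kdm6a counted 99.3, 102 and 62.5 CPM with shNizp1#2, a log2 change of 0.29 (SE 0.11, adjusted p = 0.315 by edgeR with the block). Kdm6a was thus above the fusion control of its experiment in 3 of 3 experiments with each shRNA, and the 2 shRNAs share those controls.

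Cbx7 and Phf1 had the largest log2 changes among the genes named for this comparison. Cbx7, a reader of the PRC2 mark known for repressing Cdkn2a, counted 9.42, 11.9 and 5.69 CPM in the fusion control and 12.6, 24 and 8.22 with shNizp1#2. The change was 0.68 on the log2 scale (SE 0.23, interval 0.19 to 1.17, adjusted p = 0.283 by edgeR with the block), and without replicate 2 of shNizp1#2 it was 0.20 in the fit without the block. Phf1 counted 43.1, 49.4 and 30 CPM against 51.2, 79.6 and 36.4, with a log2 change of 0.42 (SE 0.17, adjusted p = 0.397 by edgeR with the block) and of 0.09 without that library and without the block.

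Kmt2a (chr9:44803355-44881296, minus strand) counted 45.8, 133 and 61.2 CPM in the fusion control and 54.5, 177 and 69.7 with shNizp1#2, higher in each experiment. The log2 change of Kmt2a was 0.29 (SE 0.12, interval 0.04 to 0.54, adjusted p = 0.379 by edgeR with the block), and the groups overlapped widely because replicate 2 stood far above the others. With the empty vector Kmt2a counted 50.3, 134 and 84.3 CPM. Without the block, leaving out replicate 2 of shNizp1#2 turned the change to -0.38. Men1 was lower in each experiment, with 45, 54.4 and 52.4 CPM against 51.5, 63.9 and 62.8, a log2 change of -0.23 (SE 0.10, adjusted p = 0.404 by edgeR with the block). No member's groups were free of overlap in this comparison, against 3.48% of all tested genes higher and 3.04% lower.

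Between the shRNAs, which were compared directly, Suz12 came nearest to the threshold. Suz12 was higher with shNizp1#2 (143 to 177 CPM) than with shNizp1#1 (129 to 133 CPM) and the groups did not overlap (4.87% of all tested genes). Its log2 difference was 0.31 (SE 0.09, interval 0.12 to 0.49, adjusted p = 0.0837 by edgeR with the block). Kdm6b counted 112, 87.4 and 63.9 CPM with shNizp1#1 and lay higher with shNizp1#2 in each experiment, by 0.34 on the log2 scale (SE 0.10, adjusted p = 0.106 by edgeR with the block). Pcgf6, part of the PRC1 form that contains Max and Mga, counted 9.99, 13.1 and 17.1 CPM with shNizp1#1 and 6.85, 8.35 and 10.6 with shNizp1#2, a log2 difference of -0.63 (SE 0.20, adjusted p = 0.121 by edgeR with the block).

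Bap1, Kdm5a and Kmt2b were also named between the shRNAs. Bap1 counted 94.4, 85.7 and 83.5 CPM with shNizp1#1 and 82.2, 74.7 and 67.6 with shNizp1#2, without overlap (4.34% of all tested genes), a log2 difference of -0.23 (SE 0.10, adjusted p = 0.272 by edgeR with the block). Kdm5a counted 105, 135 and 89.8 CPM and 119, 177 and 103 CPM, a log2 difference of 0.26 (SE 0.11, adjusted p = 0.259 by edgeR with the block). Leaving out replicate 2 of shNizp1#2 turned it to -0.01 without the block. Kmt2b counted 76.8, 106 and 85 CPM and 88.9, 116 and 97.6 CPM, a log2 difference of 0.18 (SE 0.09, adjusted p = 0.341 by edgeR with the block), higher with shNizp1#2 in 3 of 3 experiments.

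Ezh1, Ezh2, Rnf2, Bmi1, Dot1l, Asxl1 and Men1 each overlapped the fusion control in both shRNA groups. Ezh1 counted 61.9, 132 and 60.7 CPM with shNizp1#1 and 71.6, 117 and 49.6 with shNizp1#2. Ezh2 counted 119, 89 and 103 CPM and 105, 67.2 and 90.1 CPM, so its lowest library of the 12 was replicate 2 of shNizp1#2. Rnf2 counted 53.5, 60 and 47.8 CPM and 55.9, 50.1 and 47.4 CPM, less spread than with the empty vector. For Bmi1 the values were 68, 53.9 and 65.4 CPM and 80.2, 66.8 and 65 CPM, with replicate 1 again the highest. Dot1l counted 98.7, 87.9 and 107 CPM and 92.5, 96.8 and 104 CPM, and Asxl1 87.8, 88.2 and 84 CPM and 98.3, 100 and 87.4 CPM. Men1 with shNizp1#1 counted 49.2, 56.9 and 56 CPM.

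The spread of these genes followed the experiment more than the group. In a split of the log2 CPM of each gene over the 12 libraries, the experiment held a median of 64.1% of the sum of squares of the 42 genes and the group 21.5%, against 48.6% and 20.7% over all tested genes. The experiment held over 50% for 26 of the 42 genes and for 48.3% of all tested genes. The stacked plot of these shares orders the genes from Kmt2d, with 96.1% by experiment, to Pcgf3, with 0.275% by experiment and 70.3% by group. Pcgf3 was also the most even of the 42 genes, with a 1.25-fold range over the libraries. Mtf2 (67.8%), Asxl1 (61.5%), Bap1 (60.7%) and Suz12 (57.6%) were among the 6 genes with over 50% by group. These 6 are 14.3% of the 42 genes, near the 12.3% of all tested genes.

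**Figure D3:**
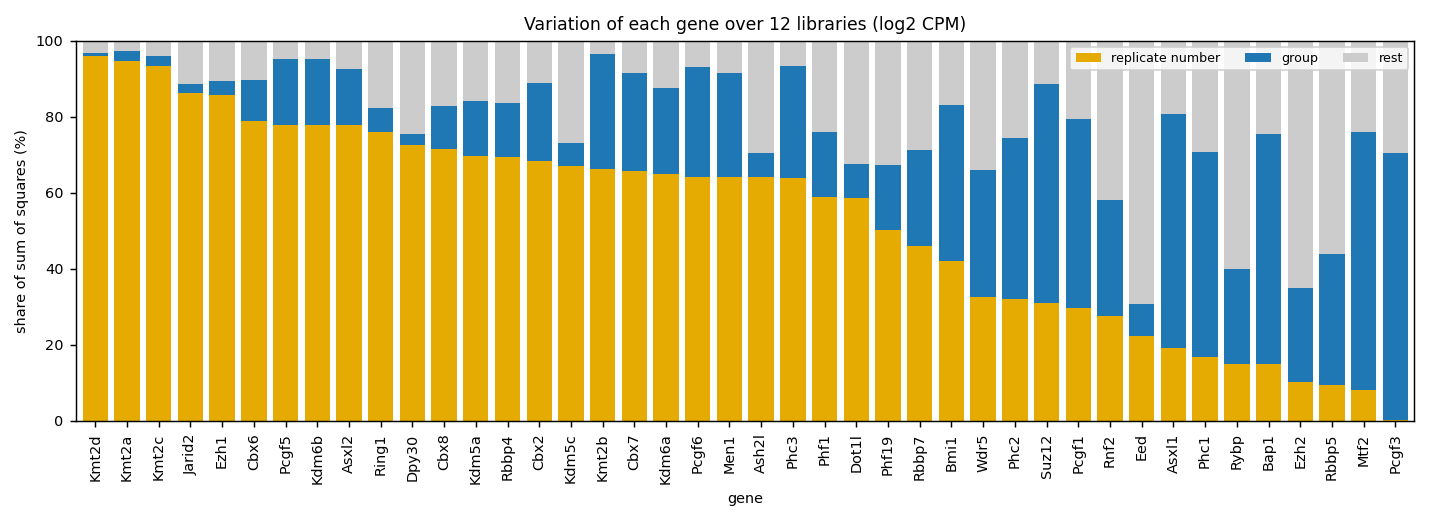
Share of each gene's sum of squares over 12 libraries (y axis, percent, log2 CPM) held by the replicate number, the group and the rest, with genes on the x axis in order of the first share. Kmt2d, Kmt2a and Kmt2c lead with 96.1%, 94.6% and 93.3% by replicate number, and Pcgf3 ends the order with 0.275%.

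Kmt2a, Kmt2c and Kmt2d showed this strongly, and the remaining catalytic MLL gene, Kmt2b, less. Kmt2d (chr15:98831669-98871204, minus strand) counted 74.3, 228 and 146 CPM with the empty vector, 70.5, 244 and 104 in the fusion control, 80.6, 265 and 99.7 with shNizp1#1 and 72.9, 228 and 111 with shNizp1#2. Kmt2c (chr5:25273609-25498745, minus strand) counted 56.5, 114 and 89 CPM, 56.5, 133 and 78.5 CPM, 48.8, 146 and 72.1 CPM and 58.9, 167 and 87 CPM in the same order. In every group replicate 2 was the highest and replicate 1 the lowest. Experiment 2 exceeded experiment 1 by 3.07-fold to 3.46-fold for Kmt2d, 2.67-fold to 3.26-fold for Kmt2a, 2.03-fold to 2.99-fold for Kmt2c and 1.28-fold to 1.40-fold for Kmt2b over the 4 groups. The plot of the 4 genes by group and replicate shows the separation.

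**Figure D4:**
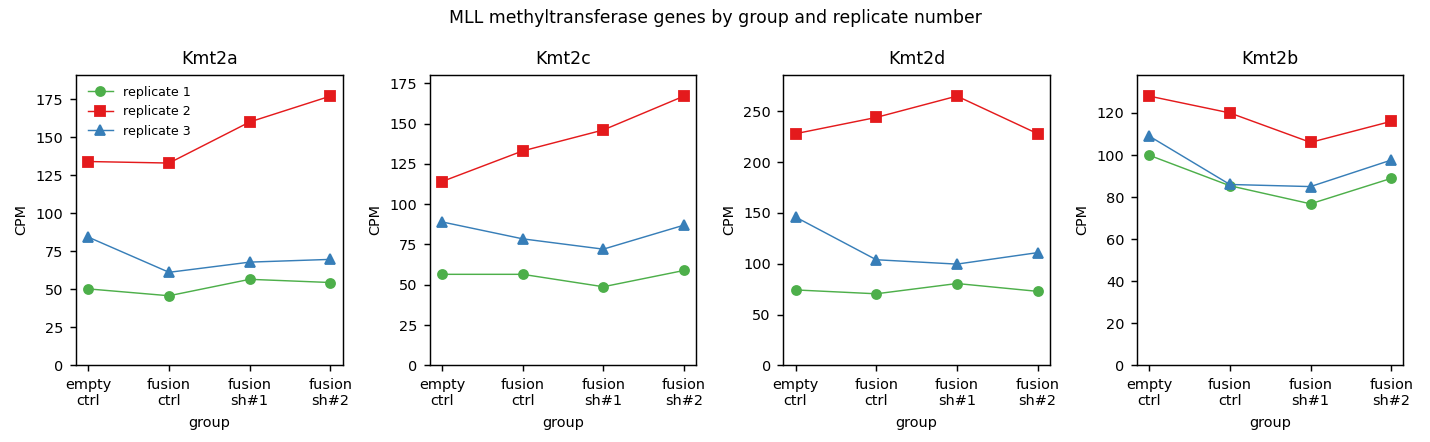
CPM (y axis, from 0) of Kmt2a, Kmt2c, Kmt2d and Kmt2b in the 4 groups (x axis), with 1 line for each replicate number joining libraries that share it and no error bars, since each point is 1 library. Replicate 2 is the highest in each group for all 4 genes, at 228 to 265 CPM for Kmt2d against 70.5 to 146 in the other libraries.

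Experiment 2 was the highest in all 4 groups for 12 of the 42 genes (28.6%, against 15.2% of all tested genes): Ezh1, Cbx2, Cbx8, Phc3, the 4 Kmt2 genes, Men1, Kdm5c, Asxl1 and Asxl2. Experiment 1 was the lowest in all groups for 8 (19%, against 3.71%), namely Pcgf6, Cbx2, Phc3, the 4 Kmt2 genes and Men1. Experiment 3 was the highest for 8 genes (14.7% of all tested genes), among them Rbbp4, Wdr5 and Phf19, and the lowest for another 8 (16.6%), among them Ezh1, Jarid2 and both Kdm6 genes. Bmi1 and Kdm6b were the 2 genes highest in experiment 1 in all groups (4.76%, against 6.25% of all tested genes). Experiment 2 was the lowest for 3 genes, Suz12, Rbbp4 and Cbx6 (7.14%, against 12.8%). These counts describe the libraries, with no test, since the labels give no treatment that separates the experiments.

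Several measures moved with the experiments. A list of 10 neutrophil genes summed to 849 to 1620 CPM in experiment 2, 202 to 450 in experiment 1 and 3.04 to 10.3 in experiment 3, and 10 monocyte and macrophage genes to 2450 to 4180 in experiment 2 against 101 to 1770 in the others. None of the 20 genes was at 0 in all libraries of a group, but each group holds a library of experiment 2. In experiment 3 the neutrophil genes Camp, Ltf and Cd177 had 0 counts in every library. Gene length moved as well: the median tested gene under 2000 bases lay 0.10 below its 12-library mean in experiment 2 (log2), and the median gene of 12000 bases or more lay 0.27 above it. Kmt2d (19830 bases), Kmt2a (16470) and Kmt2c (14967) are in that longest class and lay 0.92, 0.88 and 0.70 above their means, higher than 87.7%, 86.5% and 82.2% of its 163 genes. Kmt2b (8481 bases) lay 0.25 above, higher than 66.5% of the genes of its class. Over the 42 genes Spearman's rho of length with this deviation was 0.54, and over all 11994 tested genes 0.21, as descriptions across genes that share the same libraries. The part of cell makeup and of length in the differences between experiments was not tested.

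**Figure D5:**
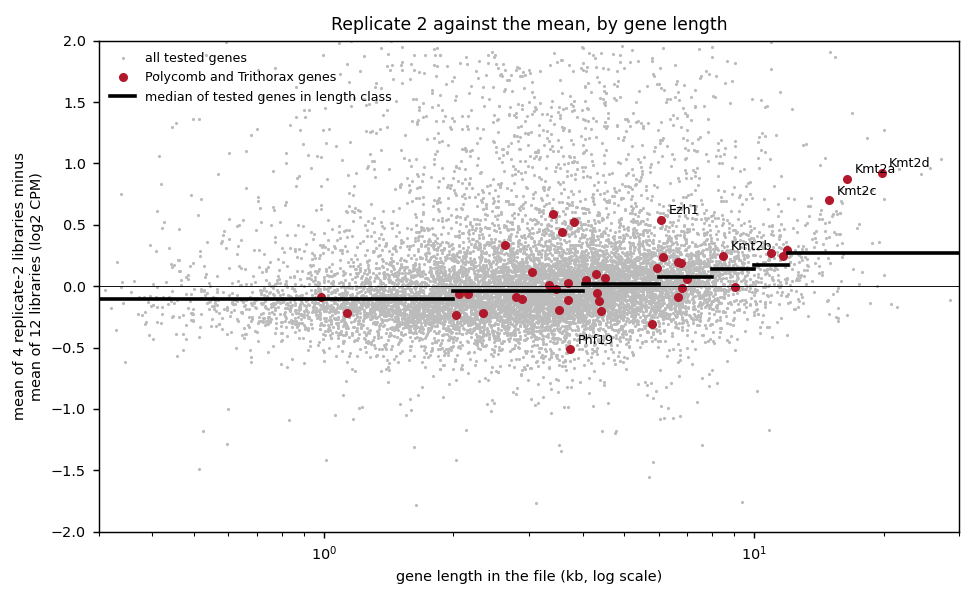
Mean log2 CPM of the 4 replicate-2 libraries minus the mean of 12 libraries (y axis) against gene length in the file (x axis, kb, log scale), for all tested genes (grey), the 42 genes (red) and the median of tested genes in 7 length classes (black lines). The medians go from -0.10 in the shortest to 0.27 in the longest class, Kmt2a, Kmt2c and Kmt2d lie above it, and 203 genes fall outside the plotted range.

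The ratio of the PRC2 methyltransferases differed between libraries. Per kilobase Ezh2 exceeded Ezh1 in 12 of 12 libraries, by a median of 3.08-fold. The ratio was 2.39, 2.51 and 3.68 with the empty vector, 2.97, 2.36 and 4.51 in the fusion control, 4.18, 1.47 and 3.67 with shNizp1#1 and 3.18, 1.24 and 3.94 with shNizp1#2. Both libraries under 2 were replicate 2 of an shRNA group, where Ezh1, the form associated with non-dividing cells, was at its highest 2 values. The same 2 libraries had the lowest sums of 15 S phase genes (1090 and 1180 CPM, against 1740 to 2720 in the others) and of 15 G2 and M phase genes (1340 and 1460, against 2110 to 2580). Phf19 was also at its lowest there, at 9.49 and 16.1 CPM against 20.1 to 42.8. The part of proliferation in these ratios was not tested.

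Other genes of the same pathways gave a similar picture. Of 18 further Polycomb genes, all tested, none was called with the fusion or with shNizp1#2, 1 was called lower with shNizp1#1 and the same 1 higher with shNizp1#2 than with shNizp1#1 (edgeR with the block). This was Foxk2, a forkhead protein that binds Bap1. Foxk2 counted 72.5, 77.7 and 97.5 CPM in the fusion control, 51.6, 32.7 and 56.2 with shNizp1#1 and 80.9, 77 and 94.2 with shNizp1#2. Its log2 change was -0.82 (SE 0.13, adjusted p = 0.00756 by edgeR with the block) with shNizp1#1, and 0.85 (SE 0.13, adjusted p = 0.00358 by the same test) between the shRNAs. The shNizp1#1 libraries lay below all others, the empty vector (69.2 to 99.9 CPM) included, and without the block the adjusted p was 0.561 and 0.383.

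Of 32 further Trithorax and H3 lysine 4 genes, 31 were tested and 1 was called, Kdm1a, an H3 lysine 4 demethylase, higher with shNizp1#2 than with shNizp1#1 (edgeR with the block). Kdm1a counted 83.5, 79 and 89.2 CPM with shNizp1#1, 102, 117 and 113 with shNizp1#2 and 109, 103 and 104 in the fusion control. The log2 difference between the shRNAs was 0.40 (SE 0.09, adjusted p = 0.0318 with the block and 0.383 without). Both genes passed only in the blocked fit. Markers of other cell types moved in the same comparisons: of 10 neutrophil genes 5 were called lower with shNizp1#1 (median log2 change -1.33) and 5 higher with shNizp1#2 than with shNizp1#1 (median 0.98), and of 6 tested eosinophil genes 2 and 1 (edgeR with the block, none without it). The neutrophil genes summed to 450, 1570 and 3.34 CPM in the fusion control, 202, 849 and 10.3 with shNizp1#1 and 344, 1590 and 9.39 with shNizp1#2. The eosinophil genes summed to 15.3 to 79.6, 13.9 to 31.8 and 13.2 to 54.6 CPM. Their part in the results of Foxk2 and Kdm1a was not tested. Median log2 changes with the fusion were -0.04 for the 18 Polycomb genes, -0.03 for the 31 Trithorax genes and -0.03 for the 42 genes, against 0.00 over all tested genes.

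Of a list of Hox genes, their cofactors Meis1 and Pbx3 and the Ink4 genes, 8 were tested, and with the fusion 3 of these, all in the HoxA cluster, were called higher and none lower (edgeR with the block; none of the 8 passed without it). Hoxa9 was at 0.176, 0.746 and 0.217 CPM with the empty vector, under or near the level of 3 counts, and at 18.8, 11 and 62.8 in the fusion control, and Hoxa7 and Hoxa10 were the others called. With shNizp1#1 Hoxa9 counted 14.5, 4.19 and 56 CPM and with shNizp1#2 16.5, 7.57 and 69.7, and none of the 8 was called with either shRNA. Experiment 2 had the lowest Hoxa9 value of each fusion group, while it had the highest value of Kmt2a and Men1. For Men1 the lead over experiment 3, where Hoxa9 was highest, was only 1.01-fold to 1.04-fold. Experiment 3 also had the highest value in all 4 groups for 8 of the 42 genes, among them Wdr5, Dpy30 and Dot1l. Experiment 2 had it for 12. The relation of Hoxa9 to these genes was not tested. In the comparison of the fusion with the empty vector, the intervals of 40 of the 42 genes lay within 2-fold with the block, and of 33 without it.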

How the data were processed

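The deposited values are whole-number read counts per gene, with gene coordinates and lengths. Per the labels' protocols, 1 µg of RNA went into stranded poly(A) libraries read as single 75 nt reads. Per the submitters' processing notes the authors used Trimmomatic 0.32, STAR 2.5.3a, featureCounts and mm10; how strand and multiply mapped reads were treated, and the annotation release, were not stated there. Reads of near-identical copies (Rybp, Wdr5) and of overlapping antisense genes may therefore be split or shared. Of the 42 genes, 33 have the same start, end and strand in GENCODE vM21.

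The members and gene lists were chosen with earlier results of these data known. Counts of all genes were tested with edgeR 4.0.16 in R 4.3.3 (robust quasi-likelihood, filterByExpr, TMM, 12 libraries, 1 mean per group), with Benjamini-Hochberg adjustment over 11994 genes and a threshold of 0.05. CPM and RPKM were computed from these counts; without molecular identifiers, count floors cover counting error only. The model named first had no block. Residuals then showed that replicate numbers pair the libraries (18 same-number pairs, r from 0.205 to 0.87, median 0.738; other pairs, median -0.182; 12 of 12 libraries correlated best with their own number), so values with the number as a block are given beside it, and log2 changes are blocked unless stated. The residuals were taken from each group's own mean, so the negative value of other pairs is not independent of the positive value of same-number pairs. No 2 replicates agreed within sampling noise.

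Genes given in full were, by rule, any called member (none), the 6 members with the smallest blocked p in each comparison, and Ezh1, Ezh2, Bmi1, Rnf2, Kmt2a, Men1, Dot1l, Kdm6a, Kdm6b, Asxl1 and Bap1. Called genes of the wider lists and Hoxa9 and Zkscan17 were also named. Alternatives were RLE and upper-quartile scaling, no filter, DESeq2 1.42.0, limma-voom (limma 3.58.1) and leaving out single libraries. Each of these was fitted with and without the block. Fits of only the groups compared had no block, and fits that left out an experiment had it.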

Additional observations from a re-analysis of the deposited data

How the results depend on the processing

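Of 108 alternative fits of the number of members called, 106 gave 0. With the block and no filter on low counts (1.9% of genes called), 1 member was called higher with the fusion, Mtf2 (log2 change 0.48, adjusted p = 0.0302 by edgeR). Leaving out libraries gave 0 to 1 members called lower with the fusion: with the block and without replicate 2 of the empty vector (1.37% of genes called), Phf1 was called (log2 change -0.64, adjusted p = 0.0312 by edgeR). In all other fits no member was called in any comparison. With every other setting as in the report, the replicate block changed no call of a member, while it changed the calls of Foxk2 and Kdm1a. Both member calls named above were made only with the block. Of 918 values of single genes under alternatives, 43 changed sign, nearly all of them within 0.3 of 0. Men1 with the fusion was -0.004 (log2) at first and became 0.003 with the replicate block, 0.003 with upper-quartile scaling, 0.001 with DESeq2 and 0.02 with limma-voom, and with the block 0.004 (RLE), 0.011 (upper quartile), 0.003 (no filter), 0.004 (DESeq2) and 0.005 (limma-voom). Leaving out libraries moved the fusion's log2 change of Men1 from -0.154 to 0.087, Dot1l from -0.09 to 0.123, Ezh1 from -0.429 to 0.044, Ezh2 from -0.208 to 0.127, Kdm6a from -0.236 to 0.046, Kdm6b from -0.277 to 0.297 and Kmt2a from -0.74 to 0.257. It moved Kmt2a with shNizp1#2 from -0.379 to 0.91, and Kdm5a between the shRNAs from -0.007 to 0.45. The cause was not tested. With 3 libraries a group and up to 6842589 counts, the intervals of Cbx2, Cbx7, Pcgf6 and Phf19 reached beyond 1.5-fold in all 4 comparisons.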
